A study of Drosophila melanogaster with 10 samples.

Results

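The RNA of a Mael knock-down was set directly against that of a CG3893 knock-down in ovarian somatic cells (OSC), a Drosophila line of cultured somatic cells of the ovary. The comparison takes 2 of the 10 libraries of the series, 6 of them poly(A) RNA sequencing and the other 4 chromatin immunoprecipitation of RNA polymerase II (Pol II). Cells of 1 culture had been transfected once with an siRNA against Mael and those of the other with an siRNA against CG3893, and both were analysed after 2 days of growth at 26 °C. The control library, from cells given an siRNA against EGFP, and the libraries of the Piwi, Armi and HP1a knock-downs serve below as reference levels only. No mutant allele or other agent is named for any group, and a knock-down leaves part of its target's RNA.

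Every transposable element (TE) family or gene with a mean of at least 1 over both libraries was taken, in RPKM, reads scaled by length and library total. That held for 114 of 177 TE entries and for 7681 of 13984 genes. The difference is the log2 of (RPKM + 1) in Mael minus that in CG3893, so a positive value means more RNA in the Mael library. Each group held 1 library, so there is no replicate check, no test and no p-value, and a size limit of 2-fold on this scale stands in for them. Ratios are plain ratios of RPKM, and the 95% intervals given for families (exact binomial, on recovered read numbers) cover counting error only.

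Piwi-interacting RNAs (piRNAs) guide the nuclear protein Piwi to nascent TE transcripts, and Piwi with its partners then represses their transcription. Mael (Maelstrom) and CG3893, a small zinc finger protein also called Asterix or DmGTSF1, are both needed for this nuclear step and not for loading Piwi with piRNAs. In OSC, which have a Piwi pathway without the germline's amplification loop, the families mainly held down are retrotransposons with long terminal repeats (LTRs), above all those of the Ty3/gypsy type.

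The targets were depleted to unequal depths. In the Mael library, mael RNA (locus on 3L, bases 22717333 to 22719334, build dm3) was at 9.01 RPKM, beside 83.0 in CG3893 and 87.2 in the control. That of CG3893 (3L, 18893688 to 18894593) stood at 11.4 RPKM in its own library, 20.4 in Mael and 23.5 in the control. Each target was at its lowest of the 6 RNA libraries in its own knock-down, but mael was at 10.3% of control where it was targeted and CG3893 at 48.4%. What follows from the factor and what follows from the depth of its depletion cannot be told apart. The RNA of piwi was nearly equal, at 599.9 RPKM in Mael and 601.6 in CG3893. The Mael library held 25393324 reads and the CG3893 library 31482093, and 11.7% and 9.37% of them fell on TE entries.

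TE RNA was higher in the Mael library for most families. Of the 114 families 14 were past 2-fold higher in Mael (12.3%), 0 were past 2-fold lower (0%), 97 were above 0 and 17 below. The median difference was 0.34 on the log2 scale. The interval of the plain ratio lay above 1 for 86 families, below 1 for 10 and across 1 for 18. Genes of the same libraries had a median difference of -0.04, and 85.1% of them lay within 1.2-fold on the same scale, against 41.2% of the families. Past 2-fold, 1.48% of the 7681 genes were higher and 0.521% lower.

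**Figure D1:**
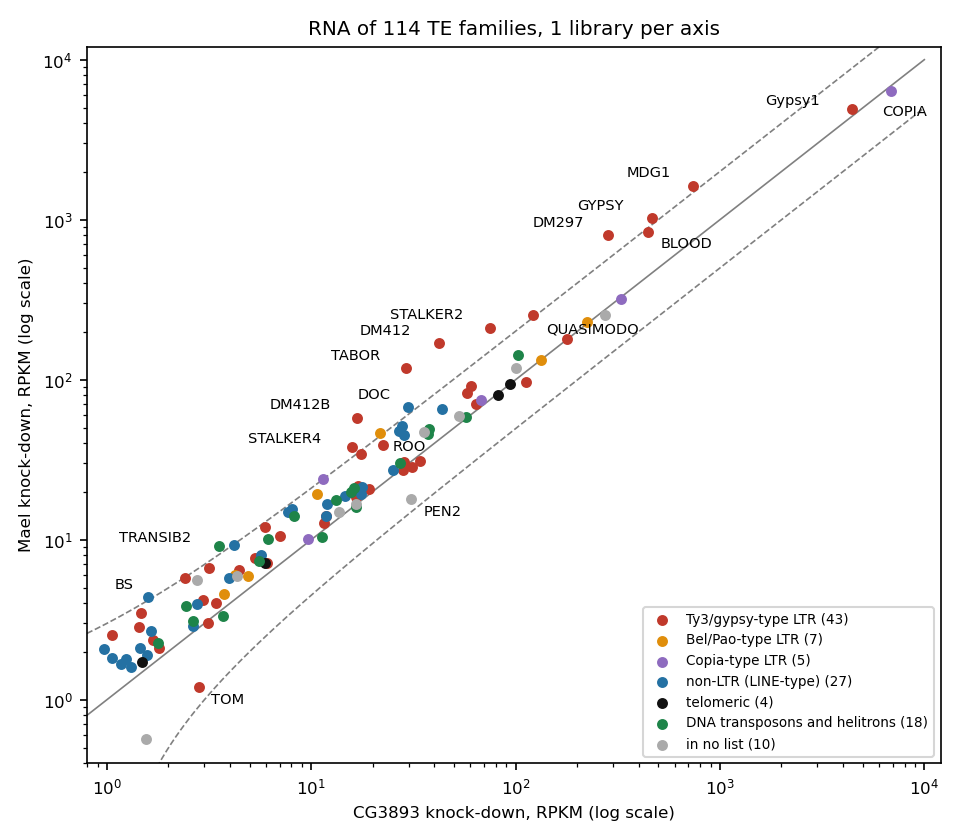
RNA level of the 114 TE families in the CG3893 library (horizontal, RPKM) and in the Mael library (vertical, RPKM), both on log scales, coloured by class. The solid line marks equal levels and the dashed lines the 2-fold limit on the RPKM + 1 scale; 14 families lie above the upper dashed line and 0 below the lower one, while COPIA and Gypsy1, the most abundant entries, lie close to the solid line.

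Ty3/gypsy-type families led. Their RNA codes for a Gag and a Pol protein and, in the endogenous retroviruses among them, an envelope protein. Of 43 tested, 9 were past 2-fold higher, 37 were above 0, and the median was 0.46, beside 14 of 114 and 0.34 over all families. The widest gap was that of TABOR, at 118 RPKM in Mael, 29.2 in CG3893 and 3.65 in the control, a Mael to CG3893 ratio of 4.05 (3.93 to 4.16). DM412 was next, at 169 RPKM in Mael, 42.3 in CG3893 and 4.55 in the control, a ratio of 4.00 (3.91 to 4.10). Its relative DM412B, a separate entry that may share reads with it, stood at 57.9, 16.8 and 4.19 RPKM in the same order. For these 3 families the step from CG3893 to Mael was at least 3.45-fold, the largest among the families past the limit.

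The other gypsy-type families past the limit showed smaller ratios, all but STALKER4 over larger amounts of RNA. DM297 stood at 797 RPKM in Mael against 283 in CG3893, a ratio of 2.82 (2.79 to 2.85), with 20.1 in the control. STALKER2 had nearly the same ratio, 2.82 (2.78 to 2.87), at 212 against 75.0 RPKM. STALKER4 was at 38.0 against 15.8 RPKM, a ratio of 2.40 (2.31 to 2.51). The namesake GYPSY, a retrovirus-like element with an envelope gene, and MDG1 then shared a ratio: 2.20 for both, with intervals of 2.18 to 2.21. GYPSY reached 1023 RPKM in Mael and 465 in CG3893, MDG1 1628 and 742. QUASIMODO stood at 255 against 122 RPKM, a ratio of 2.09 (2.06 to 2.12).

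The other classes described here had 1 or 2 families each past the limit, beside 12.3% of all families. Such counts do not set lists of 5 or 7 families apart. Among 27 non-LTR families, LINE-type elements that copy themselves from RNA at the site of insertion, DOC stood at 67.2 against 29.6 RPKM, a ratio of 2.27 (2.19 to 2.35), and BS at 4.39 against 1.59 RPKM, a ratio of 2.77 (2.38 to 3.22). All 27 lay above 0, with a median of 0.44. Of 7 Bel/Pao-type families, another LTR class, 1 was past the limit: ROO, at 46.6 against 21.8 RPKM, a ratio of 2.14 (2.07 to 2.21). The class median was 0.23, with 6 of 7 above 0. Of 5 Copia-type families 1 was past it, the short entry COPIA2LT, at 24.1 against 11.4 RPKM but on only 121 and 71 reads, so its interval ran from 1.56 to 2.87; the class median was 0.06. Among 18 DNA transposons and helitrons, which move without an RNA copy, 1 was past it: TRANSIB2, at 9.14 against 3.52 RPKM, a ratio of 2.60 (2.27 to 2.98), and the class median was 0.34.

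The limit runs through a continuous series of values. Just inside it lay COPIA2LT, with a log2 difference of 1.02, and QUASIMODO, BS and ROO, each at 1.06. Just outside lay GYPSY12A and G5, both at 0.99, INVADER2 at 0.93 and BLOOD at 0.92. BLOOD was abundant, at 840 against 443 RPKM, a ratio of 1.90 (1.88 to 1.91). For low families the added 1 in the log scale decided: GYPSY12A, at 5.79 against 2.41 RPKM, had a plain ratio of 2.40 and G5, at 9.33 against 4.19 RPKM, one of 2.22. It also decided for GYPSY5 (plain ratio 2.39), ROVE (2.37), XDMR (2.14), GYPSY10 (2.12), TLD2 (2.02) and GYPSY4 (2.00). XDMR rested on 19 and 11 reads and TLD2 on 31 and 19.

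Several other well-studied families differed less. DM176 had a ratio of 1.74 (1.68 to 1.81), at 39.0 against 22.4 RPKM, and the LINE-type element I one of 1.59 (1.53 to 1.65), at 44.8 against 28.3. ZAM, an endogenous retrovirus, had a ratio of 1.47 (1.35 to 1.59), and GTWIN one of 1.42 (1.27 to 1.58); both were under 7 RPKM in each library. IDEFIX was at 20.7 RPKM in Mael, 19.2 in CG3893 and 17.98 in the control, a ratio of 1.08 (1.03 to 1.13). It thus stayed near control in both libraries. Of the 4 telomeric entries, which maintain chromosome ends in flies, 0 were past the limit and the median was 0.06; HETA had the largest difference, at 7.12 against 5.94 RPKM, a ratio of 1.20 (1.10 to 1.30).

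A few families were lower in Mael, none past the limit on the log2(RPKM + 1) scale, where the added 1 decided for TOM and DMHMR1. TOM stood at 1.20 RPKM in Mael, 2.81 in CG3893 and 3.47 in the control, a log2 difference of -0.79 and a plain ratio of 0.427 (0.362 to 0.503) on 201 and 583 reads. PEN2 was at 17.9 against 30.9 RPKM, with 21.2 in the control, so there the CG3893 library stood above the other two. DMHMR1 was at 0.57 against 1.55 RPKM, a plain ratio of 0.369 (0.188 to 0.682) on 14 and 47 reads. The most abundant entry of all, COPIA, was slightly lower in Mael: 6383 against 6864 RPKM, a ratio of 0.93, with 6658 in the control.

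**Figure D2:**
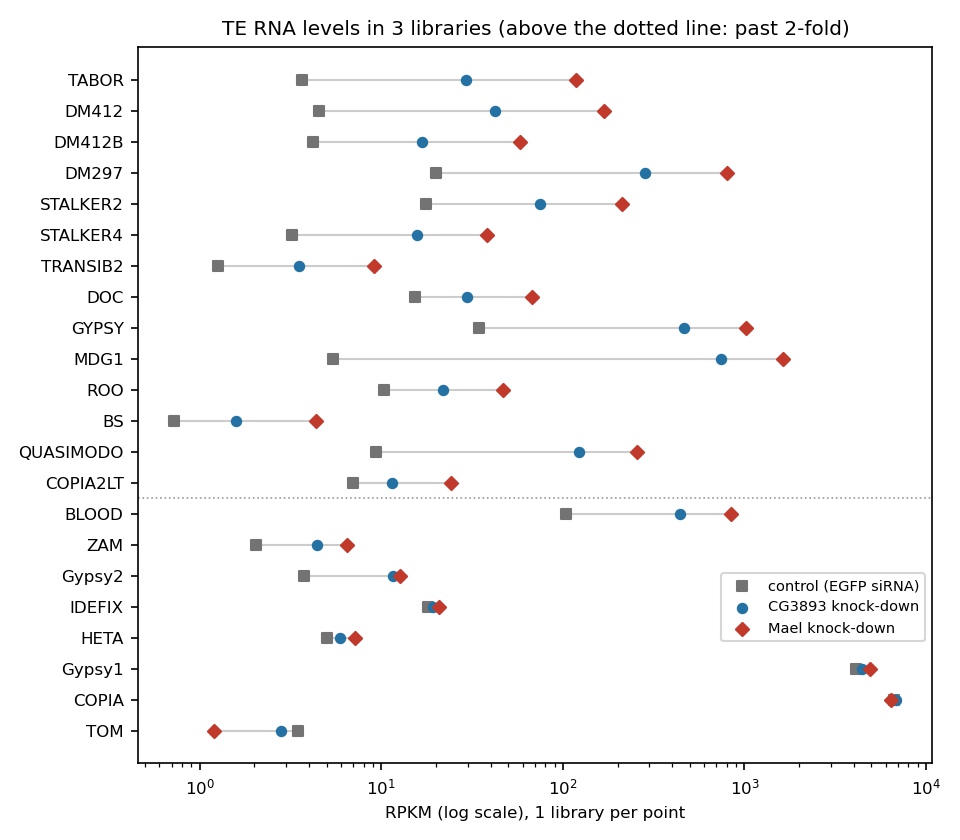
RNA level in RPKM (horizontal, log scale) of the 14 families past 2-fold, above the dotted line, and of 8 others below it, with 1 point each for the control, CG3893 and Mael libraries. In all 14 the CG3893 point lies between control and Mael, whereas IDEFIX, Gypsy1 and COPIA hold nearly the same level in all 3 libraries.

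In all 14 families past the limit the CG3893 level lay between the control and the Mael level, as it did in 93 of all 114. A family could be far above control in both libraries and still differ between them: MDG1 was 299-fold above control in Mael and 136-fold in CG3893, and QUASIMODO 27.1-fold and 12.96-fold. The evenness of the gap was read from the 23 families at least 2-fold above control in both libraries. Their Mael to CG3893 ratio ran from 1.09 to 4.05 with a median of 2.14; 22 had an interval above 1, and 12 were past the 2-fold limit. At the low end stood Gypsy2, an entry distinct from GYPSY2 in the files, at 12.7 RPKM in Mael, 11.6 in CG3893 and 3.77 in the control. Its ratio was 1.09 (1.03 to 1.16). In these libraries the families did not share 1 common ratio beyond counting error. The intervals of Gypsy2, BLOOD, MDG1, DM297 and TABOR do not overlap, but they do not cover variation between repeat libraries.

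**Figure D3:**
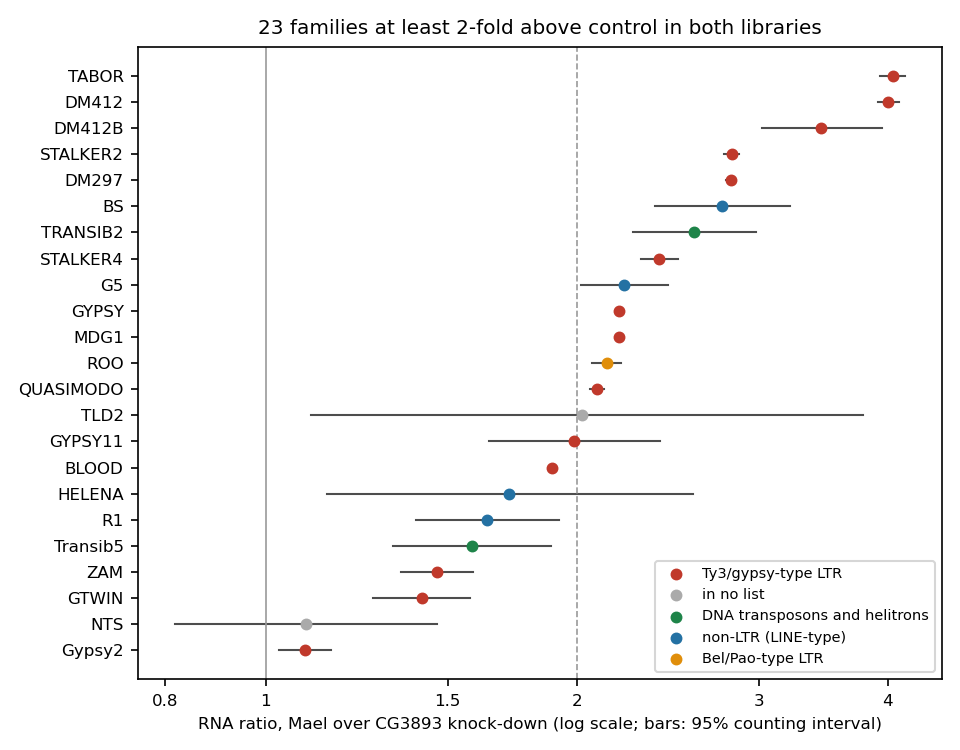
Ratio of RNA in the Mael library to that in the CG3893 library (horizontal, log scale) for the 23 families at least 2-fold above control in both, with 95% counting intervals as bars and colours for class. The solid line marks 1 and the dashed line 2; ratios run from 1.09 for Gypsy2 to 4.05 for TABOR, and only the interval of NTS, an entry in no class, reaches below 1.

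Of 16 tested families with at least 50 RPKM in the control, 0 were past 2-fold, beside 14 of the 98 under that level and 12.3% of all families, so the count alone sets them little apart. BLOOD, at 104 RPKM in the control, had the ratio of 1.90 given above, and the other 15 had ratios between 0.863 and 1.38. INVADER4, at the low end, stood at 96.7 against 112 RPKM. Gypsy1 was at 4938 against 4449 RPKM, a ratio of 1.11.

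In reads, a few families made up most of the gap. Families higher in Mael held 25604.8 RPM (reads scaled by library total alone) more there than in CG3893. MDG1 held 24.4% of this sum, GYPSY 15.2%, Gypsy1 13.6%, DM297 13.2% and BLOOD 10.9%, together 77.3%. Gypsy1 is in this group through its abundance and not its ratio. COPIA was lower in Mael, a gap equal to -9.14% of this sum. Without COPIA and Gypsy1, TE entries took 5.05% of reads in Mael and 2.86% in CG3893.

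The other knock-downs give a scale for these levels. DM412 stood at 65.3 RPKM in Piwi, 25.2 in Armi and 67.2 in HP1a, so its 169 RPKM in Mael was the highest of the 6 RNA libraries. MDG1, at 853 RPKM in Piwi, 116 in Armi and 459 in HP1a, was also highest in Mael. For GYPSY the Piwi library was highest, at 1125 RPKM. For TABOR, DM297, STALKER2, STALKER4 and QUASIMODO it was HP1a, the last by far: 1394 RPKM against 255 in Mael.

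Pol II libraries of the same knock-downs, deposited as separate samples, ask whether the RNA gap is matched by polymerase on the TE sequences. They are in RPM, with 3313513 reads in Mael and 4221772 in CG3893, and the limit used is 1.5-fold on log2(RPM + 1). Of 142 families 2 were past it higher in Mael (1.41%) and 8 lower (5.63%), and the median difference was -0.07. Those higher were DM412 and PEN4, the latter on 7 and 3 reads. Some of those lower also rested on few reads: DMRPR on 6 and 18, POGON1 on 12 and 36 and GYPSY12A on 21 and 49. COPIA, also lower, rested on 7235 and 15863. DM412 stood at 957 RPM in Mael, 531 in CG3893 and 423 in the control, a ratio of 1.80 (1.71 to 1.90).

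For the 14 families past the limit in RNA, Pol II differed far less than RNA and in both directions. On the log2 scale 7 lay above 0 and 7 not, with a median of -0.02, and 1, DM412, was past 1.5-fold. TABOR had a Pol II ratio of 1.37 (1.29 to 1.47) beside its RNA ratio of 4.05. DM297 and MDG1 had 1.12 each, STALKER2 1.10 and GYPSY 1.07 (1.06 to 1.09), all with intervals above 1. STALKER4 went the other way, at 531 RPM in Mael against 633 in CG3893, a ratio of 0.838 (0.789 to 0.891), while its RNA was 2.40-fold higher. ROO had 0.859 (0.832 to 0.887), QUASIMODO 0.889 (0.849 to 0.930) and TRANSIB2 0.713 (0.596 to 0.851). BLOOD, just under the RNA limit, had a Pol II ratio of 1.35 (1.31 to 1.40).

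Among families under the RNA limit, COPIA had less Pol II in Mael: 2183 RPM against 3757 in CG3893 and 2652 in the control, a ratio of 0.581 (0.565 to 0.598). The DNA transposon PROTOP_A stood at 23.8 against 49.98 RPM on 79 and 211 reads, while its RNA was 1.38-fold higher in Mael. Over 111 families present in both assays, Pearson's r between the RNA and Pol II differences was 0.094, Spearman's rho -0.068, and r -0.050 without TABOR and DM412. These are descriptions across families, which share each assay's libraries and may share reads. With no input library used, polymerase and background from the many genomic copies cannot be told apart.

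**Figure D4:**
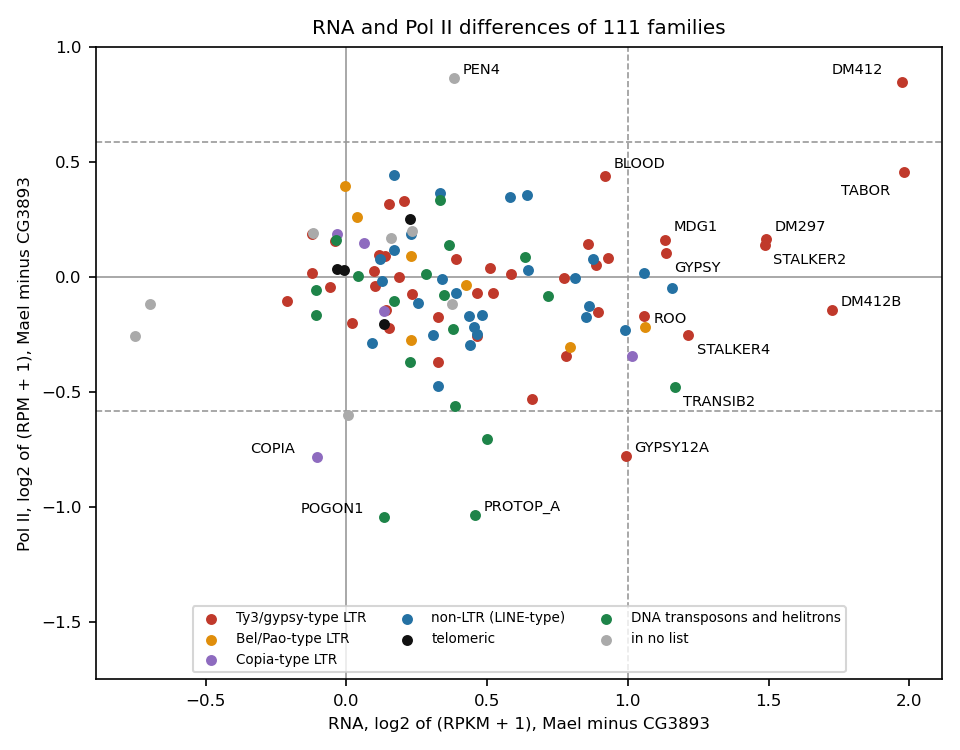
Difference between Mael and CG3893 in RNA (horizontal, log2 of RPKM + 1) and in Pol II (vertical, log2 of RPM + 1) for 111 TE families, coloured by class. Dashed lines mark the limits, 2-fold in RNA and 1.5-fold in Pol II; DM412 alone is past both, and most families right of the vertical dashed line lie close to 0 on the Pol II axis.

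Gene RNA differed far less often than TE RNA. Short RNA genes (snoRNA and similar names, or loci under 300 bases) were noisy in these poly(A) libraries: of 141 tested, 28 were past 2-fold higher and 28 lower, and 11 and 23 of those were listed at 0 in 1 of the libraries. Without them, 86 of 7540 genes were higher in Mael (1.14%) and 12 lower (0.159%). In control cells 54 of the 86 were under 1 RPKM, beside 2.12% of all 7540, but a gene that low in the control could pass the filter only through a higher level in Mael or CG3893. In 83 of them the CG3893 level lay between control and Mael, beside 56.7% of all 7540. The Mael library was the highest of the 6 in 66, beside 13.1% of all, and HP1a in 19, beside 23.7%. Being higher in Mael than in CG3893 is part of how the 86 were picked, so these counts are descriptions.

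Named genes are those furthest apart with a mean of at least 5 RPKM. On the higher side smp-30, the fly relative of the mammalian calcium-binding protein regucalcin (3R, 10571622 to 10573043), stood at 18.9 RPKM in Mael, 1.79 in CG3893 and 0.55 in the control, a log2 difference of 2.84. Its neighbour CG7362 was at 9.59, 0.60 and 0.14 RPKM. CG15828, which encodes the apolipoprotein of the lipid transfer particle, was at 46.6 RPKM in Mael, 7.89 in CG3893 and 0.09 in the control. All 3 were far below their Mael level in the HP1a library, at 2.79, 1.13 and 2.72 RPKM, though above control. In Piwi and Armi they were at most at 3.24 RPKM, also above control. Each was thus higher in Mael than in any of the other 5 RNA libraries, as were the others of the 12 genes furthest higher except CG12814. Of the higher genes named further below, ex, Hsp67Bb and CG32850 were highest in HP1a, at 51.3, 90.2 and 527 RPKM.

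Some of the other named genes were high in further libraries too. CG12814 stood at 18.6 RPKM in Mael, 3.45 in CG3893, 30.7 in HP1a, 1.61 in Piwi and 0.47 in the control. Cda5, a chitin deacetylase gene, stood at 39.2 RPKM in Mael and 8.71 in CG3893, but also at 30.6 in Piwi and 28.2 in HP1a, against 2.73 in the control. For Cda5, CG3893 was closer to the control than the Piwi library was; for CG12814 it was Piwi that was closer. Shal, a voltage-gated potassium channel gene, was at 20.4 RPKM in Mael and 5.08 in CG3893, with 20.3 in HP1a and 0.72 in the control. CG1317 was at 13.1 and 3.03 RPKM, with 9.56 in HP1a and 0.30 in the control. The cuticle protein gene Cpr67Fb was the most abundant of this group, at 65.9 RPKM in Mael, 17.1 in CG3893 and 6.11 in the control. The remaining 4 named genes, fau, CG42565, CG14838 and CG32295, lay between 9.36 and 25.1 RPKM in Mael and between 1.71 and 5.18 in CG3893. In Piwi, Armi and HP1a fau was at most 2.13 RPKM. CG42565 reached 13.9 RPKM in Piwi, and CG14838 and CG32295 were at 4.60 and 4.61 in HP1a.

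**Figure D5:**
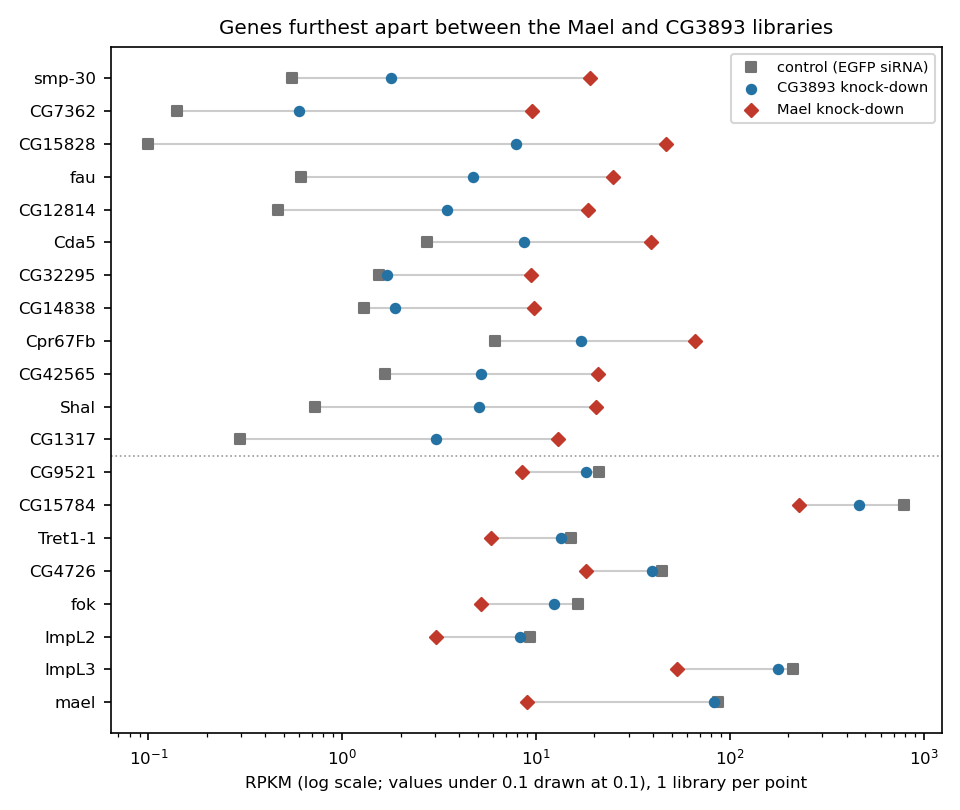
RNA level in RPKM (horizontal, log scale, values under 0.1 drawn at 0.1) of the 12 genes furthest higher in Mael, above the dotted line, and the 8 furthest lower, below it, with 1 point each for the control, CG3893 and Mael libraries. CG3893 points lie between control and Mael in all 20 and, among the 8 lower genes, mostly next to the control.

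Genes past the limit on the lower side were few, and 8 had a mean of at least 5 RPKM. The first, with a log2 difference of -3.07, is mael itself and reports the knock-down. Next was ImpL3, the lactate dehydrogenase gene (3L, 6252591 to 6255793), at 53.1 RPKM in Mael, 178 in CG3893 and 211 in the control, a log2 difference of -1.72. It stood at 147 RPKM in Piwi and 142 in Armi but at 33.3 in HP1a, so Mael and HP1a were both low. ImpL2, which encodes a secreted binding protein that holds back insulin signalling, was at 3.04 against 8.30 RPKM, with 9.30 in the control. Tret1-1, a trehalose transporter gene, was at 5.84 against 13.5 RPKM, with 15.2 in the control. CG15784 was abundant, at 227 RPKM in Mael, 463 in CG3893 and 793 in the control. The others were fok, at 5.20 against 12.3 RPKM, CG4726, at 18.1 against 39.8, and CG9521, at 8.46 against 18.2. Of all 12 lower genes, mael among them, CG3893 lay between control and Mael in 11, beside 56.7% of all 7540 genes. The Mael library was the lowest of the 6 in 5 and HP1a in 7, beside 18.6% and 37.4% of all 7540. Being lower in Mael than in CG3893 is part of how the 12 were picked, so these counts are descriptions.

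Some of the higher genes sit side by side. Of the 86, 28 (32.6%) lay within 10 kb of another of the 86, in 24 pairs, 7 of which are overlapping loci; 26 genes had such a neighbour without overlap. Of the other 7454 genes tested, 2.59% lay within 10 kb of 1 of the 86. The gap between smp-30 and CG7362 is 2039 bases, that between fau and CG14686 2206, and that between the ionotropic receptor genes Ir7f and Ir7g 633. CG14686 was at 42.7 RPKM in Mael and 12.4 in CG3893. The loci of Msi, CG32182 and CG32181 lie within that of Adgf-A, and those of Cyp6a19 and Cyp6a9 overlap. As the strand setting of the counting is not given in the sources used here, reads of such overlapping genes cannot be told apart.

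Most glycolytic genes were slightly lower in Mael, and ImpL3 was the 1 past the limit. Of 13 tested, 12 were below 0, with a median of -0.20, while over all genes tested 37.8% were above 0 and the median was -0.04. Hex-A, the hexokinase gene, was at 64.6 against 89.3 RPKM, and Ald, the aldolase gene, at 105 against 140. Genes of cytoplasmic ribosomal proteins had 0 past the limit in 82, with 2 above 0 and a median of -0.16, and RpL27, for instance, was at 1213 against 1475 RPKM. The proteasome list, at a median of -0.07 with 4 of 31 above 0, and the S and M phase genes, at -0.09 with 3 of 20 above 0, lay nearer to the median of all genes, with 0 past the limit in each. Summed over all genes tested without short RNA genes, the RPKM was 563755 in Mael and 606649 in CG3893, while TE entries took more reads in Mael; the part of this shift in the small differences of abundant genes was not tested.

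Lists of piRNA pathway genes had medians close to the -0.04 of all genes tested. Of 11 genes of nuclear silencing, mael was the 1 past the limit, and the median was -0.04. The HP1a gene was at 319 against 360 RPKM and Nxt1, a partner of nuclear export factors, at 130 against 150. Of 20 biogenesis genes 0 were past the limit, with a median of -0.05: armi, a helicase gene, stood at 489 against 509 RPKM and zuc, a nuclease gene that cuts piRNA precursors, at 12.9 against 17.9. Of these 20 genes 6 lay above 0, among them squ, at 29.3 against 21.6 RPKM, and AGO3, at 1.85 against 1.19. The 16 heterochromatin factors had 0 past the limit and a median of 0.01, and the 10 genes of siRNA and miRNA machinery 0 and 0.01. With 1.48% of all genes higher and 0.521% lower, 0 past the limit sets none of these lists apart.

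The remaining lists had at most 1 member past the limit each, beside 1.48% higher and 0.521% lower over all genes, and 1 member sets no list apart. In the Hippo growth pathway, 1 of 13 was past the limit: ex, an upstream regulator, at 39.6 RPKM in Mael, 18.5 in CG3893 and 2.43 in the control, while yki, the pathway's transcriptional co-activator, was at 47.6 against 43.5. Of 19 heat shock and stress genes 1 was past it: Hsp67Bb, at 53.8 against 25.0 RPKM, with a list median of 0.16. Of 62 genes on chromosome 4 the 1 past the limit was CG32850, a RING finger gene, at 290 RPKM in Mael, 118 in CG3893 and 31.5 in the control; the median was 0.04. Among 48 genes on heterochromatic or unplaced arms CG40733, at 3.82 against 1.22 RPKM, was the 1 past it, with a median of 0.02. Its locus is under 300 bases, so it belongs to the short genes described above as noisy. In the ecdysone list, 1 of 12 was lower, ImpL2, with a median of 0.00. The other lists had 0 past the limit: apoptosis and DNA damage (14 genes, median 0.02), JAK/STAT and Notch (13, 0.03), antimicrobial and immune (6, -0.09), basement membrane (10, -0.07) and histone genes (13, 0.05). The added 1 decided for W in the apoptosis list, at 2.21 against 1.08 RPKM, a plain ratio of 2.04. It also decided for PGRP-LB in the immune list, at 1.48 against 2.99 RPKM, a plain ratio of 0.497. In the basement membrane list both type IV collagen genes were lower without passing it, Cg25C at 5.50 against 9.91 RPKM and vkg at 1.87 against 3.59.

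Cell type markers stood at similar levels in both libraries. Follicle cell markers had 0 of 9 past the limit and a median of -0.02; traffic jam (tj), the defining factor of somatic gonad cells, stood at 189.6 RPKM in Mael and 189.8 in CG3893. The list summed to 346 RPKM in Mael, 354 in CG3893 and 363 in the control. Germline markers had 0 of 6 past the limit, with sums of 98.6, 106 and 100, and nos and osk were at or under 0.06 RPKM in each of these 2 libraries. Other germline markers were present: aret was at 31.7 RPKM in Mael and 39.0 in CG3893, vas at 1.12 and 1.58 and AGO3 at 1.85 and 1.19. Hemocyte and fat body markers had 0 of 4, with He, nimC1 and Fbp1 at 0 in both, and neuron and muscle markers 0 of 4. Their lists summed to 54.8 and 28.5 RPKM in Mael and to 47.9 and 25.1 in CG3893, and all 8 of their tested members lay above 0, with ush, a GATA cofactor gene, the furthest at 10.2 against 6.12 RPKM. The part of these markers in the differences above was not tested. Bulk RNA cannot tell fewer cells of a type from less RNA per cell.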

How the data were processed

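Per the file headers, the authors deposited RPKM for RNA and RPM for Pol II. Build dm3 and the tools Cufflinks 2.0.2, TopHat2 2.0.7, Bowtie2 2.0.0 and cutadapt are listed in the submitters' processing notes. The sources used here do not state the TE sequence set, gene annotation, strand setting or handling of reads with several matches. Of 14145 gene entries, 161 repeated a name and were summed with it. Gene coordinates are as in the files. Of 13984 gene names, 13903 were found in a release 6 gene table, used for names only.

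Differences are log2((Mael + 1)/(CG3893 + 1)), a pseudocount of 1, over features with a mean of at least 1, computed in Python 3.11.15 (numpy 2.4.6, pandas 2.3.3, scipy 1.17.1). Low features are understated on this scale. Library totals and reads per family were recovered by searching for the totals and lengths that make every RNA value a whole read number within 0.002 reads or the file's rounding; 152 of 152 families above 0 came out whole. This is a best fit, not a record of sequencing. In 10 simulated series the search found 59 of 60 totals and the exact reads of 1344 of 1503 families (89.4%). Its settings had been adjusted on those same simulations, so this rate is no independent estimate, and 1 simulated series failed. Pol II reads came from the step of 1 read, within 0.01 reads. Intervals are 95% Clopper-Pearson intervals on these reads, which are not independent molecules. Genes have no recovered reads and no interval.

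Members and lists were chosen with earlier results of these data known. The TE classes were regrouped, and the ribosomal, proteasome and short RNA name patterns set, after values had been seen. So were the descriptions by control level, by distance between genes, within 1.2-fold, by read gain, for families above control in both, and of RNA beside Pol II. Named features are up to 10 highest and 10 lowest families past 2-fold (0 were lower) and a list of 19 known ones, up to 12 highest and 12 lowest genes past 2-fold averaging at least 5 RPKM (8 were lower), the targets of the knock-downs, and up to 3 members per list. Others named were chosen after their values were seen. Alternatives were another pseudocount, 2 other scalings, other filters, another limit, leaving out short RNA genes, and the first entry of a repeated name.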

Additional observations from a re-analysis of the deposited data

How the results depend on the processing

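No paired analysis was possible because each group held 1 library, and for the same reason no library could be left out. No named family or gene past the limit changed direction under the alternatives run. With a pseudocount of 0.1 in place of 1, 2 families were past 2-fold lower, against 0. With a pseudocount of 5, 46 genes were higher and 15 lower (114 and 40 as reported), and in Pol II 1 family was higher and 5 lower (2 and 8 as reported). A mean of at least 10 left 41 genes higher and 8 lower and, in Pol II, 1 and 5. At 1.5-fold 35 families were higher and 3 lower, and 195 genes higher and 107 lower. Without short RNA genes 12 genes were lower. These numbers follow from the stated filter or limit; no cause beyond that was tested. With a pseudocount of 5, 10 families were past the limit and TRANSIB2 (0.73), ROO (0.95), BS (0.51) and COPIA2LT (0.83) were under it, as were the genes ImpL2, fok, CG4726, Tret1-1, CG9521, ex, Hsp67Bb, CG40733, Ir7f, Adgf-A, Msi, CG32182, CG32181 and Cyp6a19. GYPSY12A and G5 were past it with a pseudocount of 0.1 (1.23 and 1.13) and with both scalings. Values under these settings are not given here for the other low families with plain ratios above 2. TOM (-1.16) and DMHMR1 (-1.29) were past it on the lower side with a pseudocount of 0.1. CG15784 (-0.98) and CG9521 (-0.98), past the limit as reported, fell under it when differences were centred on the median gene, which moved values by 0.04. Both genes also fell under it when upper quartiles were made equal. Some list medians given above and near 0 did change sign: nuclear piRNA silencing (0.01 and 0.02) and follicle markers (0.03 and 0.03) with both scalings, piRNA biogenesis (0.00) with equal upper quartiles, antimicrobial genes (0.08) with no filter, and the telomeric entries (-0.02), ecdysone list (-0.04) and heterochromatic arms (-0.01) at a mean of at least 10; these medians are read as no direction. Those of the glycolysis, ribosomal protein, proteasome and S and M phase lists stayed below 0. Low families and genes rest on few reads.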
